A study of Mus musculus with 12 samples.

Results

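The antioxidant and glutathione genes described here are 41 named genes of the NRF2 response, of glutathione and thioredoxin chemistry and of peroxide and superoxide removal, out of 38481 genes in the count tables. They were taken by name, by mapping the deposited transcript identifiers to GENCODE M21 symbols and summing reads per gene. All 41 were in the tables, 36 held enough reads to be tested, and 5 did not. RNA was measured in C2C12 cells, a mouse myoblast line, in 4 groups of 3 libraries that crossed an siRNA with a drug. The groups were Crebl2 siRNA with rapamycin, Renilla luciferase (Luc) siRNA with rapamycin, Crebl2 siRNA with ethanol, and Luc siRNA with ethanol. Every group carried its siRNA for 3 days and was then given 20 nM rapamycin, an inhibitor of the kinase mTOR, or ethanol as its control for 12 hours. Crebl2 encodes a small bZIP protein related to CREB, and the labels name a single siRNA against it, so no other siRNA checks the knockdown results. Libraries are named below by siRNA, treatment and number, as in Crebl2-rapamycin library 1.

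NRF2, encoded by Nfe2l2, is a bZIP transcription factor that KEAP1 marks for degradation in unstressed cells. Oxidants and electrophiles modify cysteines of KEAP1, after which NRF2 accumulates, pairs with small MAF proteins and binds antioxidant response elements. Its known targets make glutathione, conjugate it to electrophiles, and keep thioredoxin and peroxiredoxins reduced. In muscle cells these enzymes handle the hydrogen peroxide and superoxide that mitochondria and oxidases release.

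Library totals were 33404087 to 42891015 counts. Crebl2 itself was 74.2% lower with its siRNA in rapamycin and 75.7% lower in ethanol. Defining myoblast markers were present, and their sum over 6 genes differed by group (TMM-scaled CPM, the read-count rate of edgeR). It was 3368 to 3536 CPM in Crebl2-rapamycin and 2938 to 3271 CPM in Luc-rapamycin libraries. In ethanol it was 3595 to 4146 CPM with the Crebl2 siRNA and 3946 to 4261 CPM with the Luc siRNA. With the Crebl2 siRNA 2 were called higher and 1 lower in rapamycin, and 0 higher and 2 lower in ethanol. Against ethanol, rapamycin went with 1 higher and 2 lower with the Crebl2 siRNA, and 0 higher and 2 lower with the Luc siRNA. The 8 markers of differentiating myocytes moved with both factors: they summed to 38.5 to 48.6 CPM in Crebl2-rapamycin, 181 to 217 CPM in Luc-rapamycin, 61.6 to 74.7 CPM in Crebl2-ethanol and 493 to 642 CPM in Luc-ethanol libraries, and the 6 tested ones were called lower in each of the 4 pairwise comparisons. The 4 fibroblast markers summed to 7.92 to 11.6 CPM in Crebl2-rapamycin and 30.0 to 35.2 CPM in Luc-rapamycin libraries. In ethanol they summed to 9.61 to 14.3 CPM with the Crebl2 siRNA and 38.8 to 40.8 CPM with the Luc siRNA. Of the 3 tested, Dcn and Lum were called lower with the Crebl2 siRNA in rapamycin and in ethanol, and the other was not called. Against ethanol, rapamycin went with 1 higher and 1 lower of the 3 with each siRNA. Summed adipocyte (4), macrophage (4), endothelial (3) and epithelial (4) markers reached at most 5.37, 0.623, 0.240 and 0.580 CPM, and Ptprc, Adgre1 and Tek were at 0 in all libraries, although few bases of these 3 genes could be counted. The part of these markers in the members' differences was not tested, and in bulk RNA fewer cells of a type and less RNA per cell cannot be told apart. Whether replicates were separate cultures is not given in the sources used here. Each p-value weighs a group difference against the spread of libraries within groups, estimated from all 12 libraries together. That spread may be technical.

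The deposited counts lack reads that several listed transcripts share, so each gene is seen through its countable share, the part of its exonic bases that belongs to a single listed transcript. That share was at least 90% for 21 members, all of them tested, and lower for the other 20. The 5 untested members held few reads over all 12 libraries: 2 for Gpx7, 3 for Gsta3, 3 for Gstm5, 28 for Blvrb and 44 for Mgst1. They are an endoplasmic reticulum peroxidase, a pair of cytosolic glutathione transferases, biliverdin reductase B and a microsomal glutathione transferase. Several members also share sequence with other genes or pseudogenes, and how the counting treated such reads was not given in the sources used here. Of all 50-base stretches in the main transcript, 89.7% for Gsta1, 64.2% for Gsta2, 62.3% for Gstp1, 61.7% for Gpx4, 23.1% each for Gstm1 and Sod1, 10.9% for Prdx1, 9.4% for Gstm2 and 9.0% for Prdx2 recur elsewhere. Values of these 9 genes are uncertain for that reason. Without a stated strand setting, the overlap of Gss and Prdx5 with genes on the opposite strand adds to their uncertainty.

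Promoters of 36 members were found in the RefSeq table for GRCm38.p6, covering 250 bases before and 50 bases after each start site. Gclc, Gsr, Prdx6, Gsta4 and Abcc1 had no entry there and were not searched. 3 short motifs were searched on both strands: TGACNNNGC, the core of the antioxidant response element, TGACTCA, the AP-1 element, which can overlap it, and TGACGTCA, the cAMP response element that CREB-family proteins bind. The antioxidant core was present in 22.7% of 44 member promoters, against 12.4% of 32851 promoters in the table, and the AP-1 element in 9.1% against 5.2%. The cAMP response element was present in 0.0% of member promoters and in 1.8% of all promoters. Of the 10 members whose promoters hold the core, 3 (Gsta3, Gstm5 and Mgst1) were untested, and Nfe2l2 and Sod1 are 2 others. The matches of Srxn1, Ggct, Gclm and Txnrd1, and the core of Prdx1, are shown as examples from members whose siRNA or drug differences are described below. The cores of Nfe2l2, Sod1 and the 3 untested members are not shown. Also not shown are AP-1 matches of Gstp1 (74 to 68 bases before its start site) and Gstm5, and another of Prdx1. Capitals mark the match, and each is written 5′ to 3′ on the strand of its gene. The Prdx1 window holds an AP-1 match inside the antioxidant core. A match is a description of letters and not evidence of binding.
Srxn1, AP-1 element, chr2:152105412-152105438 (plus strand): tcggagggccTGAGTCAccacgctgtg
Srxn1, AP-1 element nearer the start site, chr2:152105469-152105495 (plus strand): aaattcacccTGAGTCAgcggccgggc
Srxn1, antioxidant core, chr2:152105542-152105570 (plus strand): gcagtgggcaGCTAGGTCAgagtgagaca
Ggct, antioxidant core, chr6:54993023-54993051 (minus strand): caatagaaaaGCGACGTCAgtgggcggga
Ggct, antioxidant core after the start site, chr6:54992844-54992872 (minus strand): tctctgtgctTGACGCTGCtggcgtggat
Prdx1, antioxidant core, chr4:116685456-116685484 (plus strand): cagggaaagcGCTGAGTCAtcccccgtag
Gclm, antioxidant core, chr3:122245413-122245441 (plus strand): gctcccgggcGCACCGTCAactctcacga
Txnrd1, antioxidant core, chr10:82859104-82859132 (plus strand): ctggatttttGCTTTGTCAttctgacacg
The AP-1 matches of Srxn1 end 96 and 39 bases before its start site, and its antioxidant core lies at bases 29 to 37 counted from the start site. One Ggct core ends 166 bases before the start site and the other lies at bases 6 to 14. Before the start sites of their genes, the Prdx1 core ends at 125 bases, the Gclm core at 126 bases and the Txnrd1 core at 84 bases.

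Levels of different members were compared per kilobase of countable bases, as mean CPM per kb over all 12 libraries. Superoxide dismutase 1 (Sod1, 743 CPM per kb) and cytosolic thioredoxin (Txn1, 732 CPM per kb) led the list. The endoplasmic reticulum peroxidase Gpx8 (268 CPM per kb) and peroxiredoxin 4 (Prdx4, 257 CPM per kb), which also works in the secretory pathway, followed. Gstm1 had 169 CPM per kb and Nfe2l2 137 CPM per kb. Lowest by this measure were Gpx4 (2.02 CPM per kb), Prdx5 (1.42 CPM per kb) and mitochondrial thioredoxin reductase Txnrd2 (0.535 CPM per kb). Their countable shares were 42.5%, 49.6% and 44.3%. The measure sums countable bases over all listed transcripts of a gene, also those with few reads. For Txnrd2, a transcript with 223 of 1529 countable bases held 27.1 of 30.6 mean reads. For Txn2, 1 with 172 of 2769 bases held 710.2 of 785.9 mean reads. The order of such genes is therefore uncertain.

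**Figure D1:**
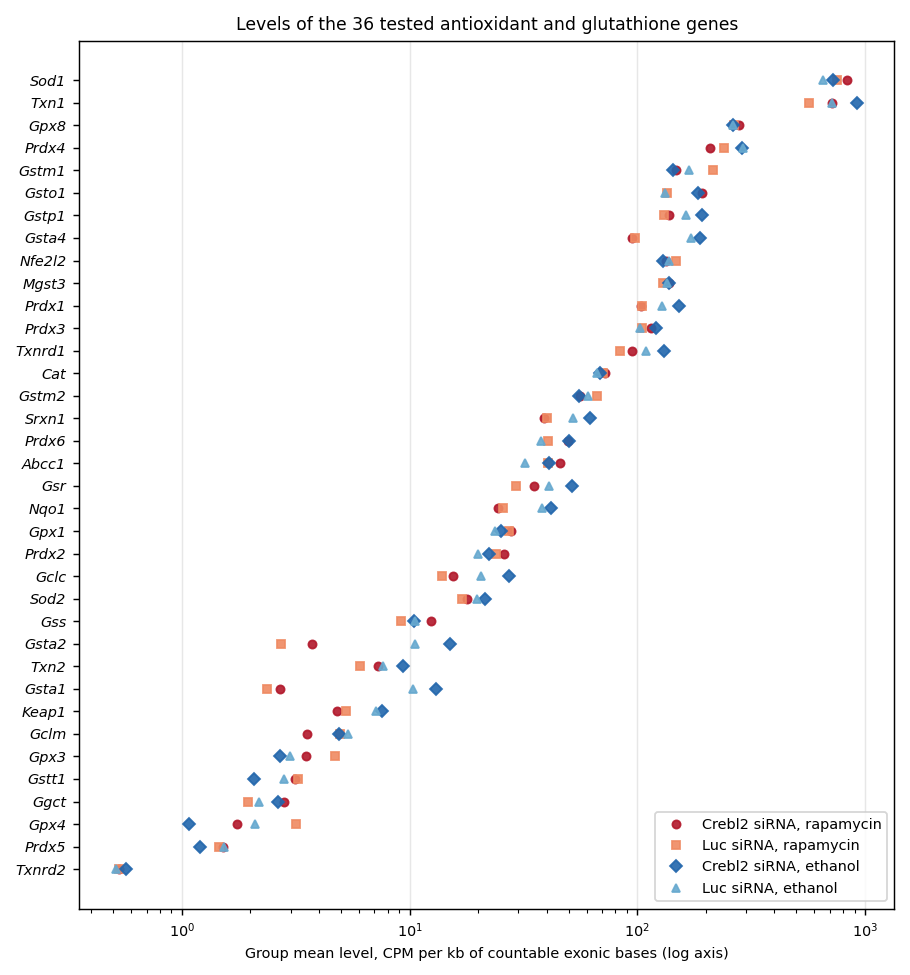
Group mean level of each of the 36 tested members in CPM per kb of countable exonic bases (log axis), genes ordered by their mean over all libraries, with a marker for each of the 4 groups. Sod1 and Txn1 lie at the top and Txnrd2 at the bottom, and Gsta1 and Gsta2 have the widest gaps between the rapamycin and the ethanol groups.

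In ethanol, the Crebl2 siRNA went with higher levels of Txn1, Txn2, Txnrd1 and Srxn1 of the thioredoxin system, of glutathione reductase, of the catalytic subunit of glutamate-cysteine ligase, of 3 peroxiredoxins and of the transferase Gsto1, and with lower Gstm1. Among these, Txn2 and the peroxiredoxin Prdx1 had overlapping groups, and their calls were lost when some single libraries were left out. Of 36 tested members, 16 rose and 3 fell against the Luc siRNA, which is 52.8% of the members; 38.4% of all 13247 tested genes were called, 21.4% higher and 17.0% lower. A call is an adjusted p under 0.05 from edgeR's quasi-likelihood test with Benjamini-Hochberg adjustment over all tested genes. After a log2 change, ± gives its SE. The median log2 fold change was 0.136 for the members and 0.012 for all genes. In 20 members the libraries of the 2 groups did not overlap, against 46.9% of all genes. No member was called at 2-fold or more, against 4.60% of all genes. Among the 21 members with a countable share of at least 90%, 13 rose and 0 fell, and among the 15 tested members under that share 3 rose and 3 fell. Calls over all genes were not split by countable share, so this split has no background beside it. The falls numbered 1 without Crebl2-ethanol library 1 or Luc-ethanol library 2.

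In rapamycin, the Crebl2 siRNA went with higher Gsto1, Ggct, Gsta2, Txn1, Prdx6 and Gsr, and with lower Gstm1 and Gclm. Gpx4 was also called lower, from 23 to 95 reads per library. Its groups overlapped, and its call was lost when some single libraries were left out. Against the Luc siRNA, 9 members rose and 7 fell, which is 44.4% of the members, while 33.1% of all tested genes were called, 16.3% higher and 16.8% lower. The median log2 fold change was 0.076 for the members and −0.013 for all genes, and 18 members did not overlap between the groups, against 46.0% of all genes. Calls of at least 2-fold numbered 0 among the members and 3.57% of all genes. Among the 21 members with a countable share of at least 90%, 8 rose and 3 fell, and among the 15 tested members under that share 1 rose and 4 fell. Here too, all genes were not split by countable share. The falls moved when a library was left out. Without Crebl2-rapamycin library 1, 9 members rose and 3 fell, and 11 rose and 3 fell without Crebl2-rapamycin library 3 or without Luc-rapamycin library 2. Over all genes, falls numbered 2228 with every library and 1540 to 1716 with any rapamycin library left out. The median of all genes then moved from −0.013 to between 0.014 and 0.024. The cause of this shift was not tested. With RLE scaling and with DESeq2, 12 rose and 7 fell. Whether the split between rises and falls differs between rapamycin and ethanol was not tested. The ethanol and rapamycin comparisons of the siRNA use separate libraries, whereas each shares a group with both drug comparisons.

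**Figure D2:**
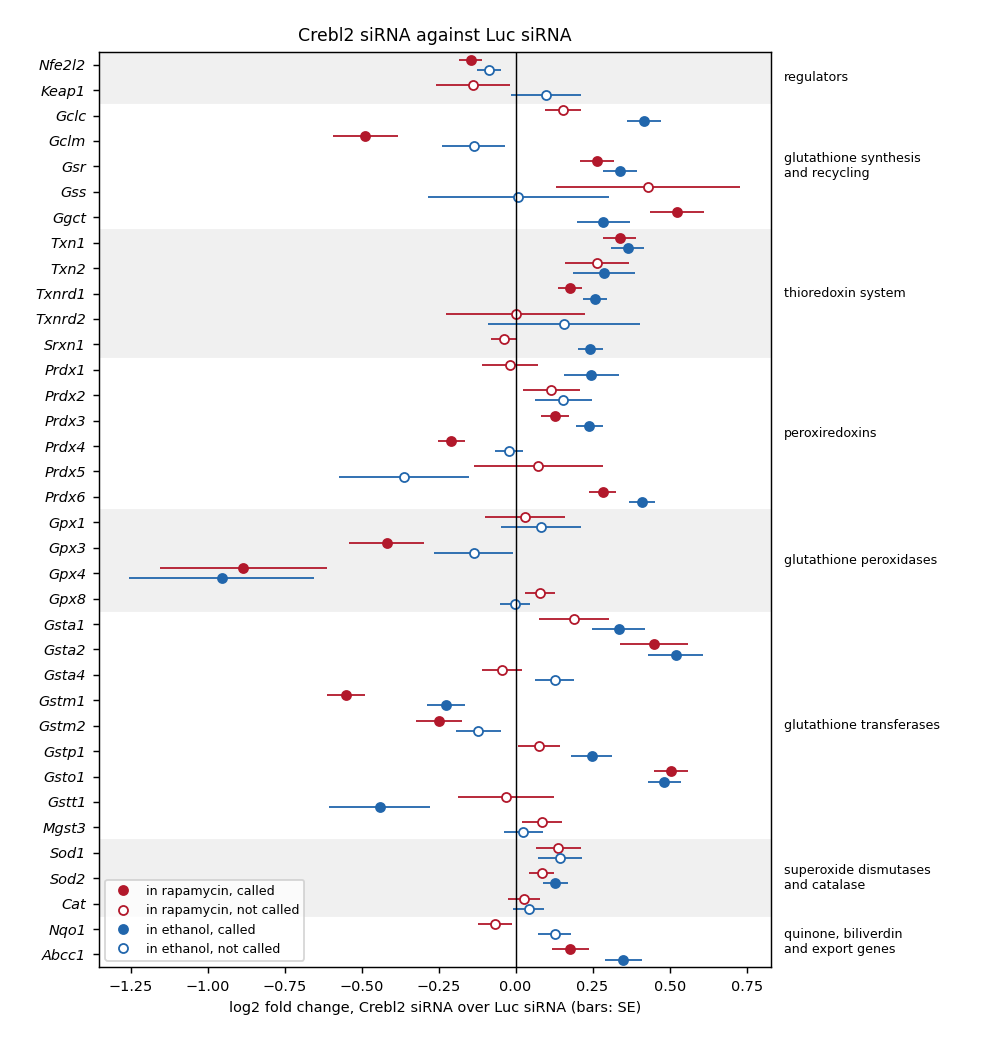
Log2 fold change of the Crebl2 siRNA over the Luc siRNA for the 36 tested members by role, in rapamycin (red) and in ethanol (blue); bars are SE and filled points are called at adjusted p under 0.05. Most filled ethanol points lie right of zero (16 higher, 3 lower), and the rapamycin points lie on both sides (9 higher, 7 lower).

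Rapamycin went with lower levels of alpha-class transferases, Nqo1, Gclc, Gsr and the thioredoxin system genes Txn1, Txn2, Txnrd1 and Srxn1 with either siRNA. With the Crebl2 siRNA, 4 members rose and 16 fell against ethanol, 55.6% of the members, against 45.3% of all tested genes (19.7% higher, 25.6% lower). With the Luc siRNA, 6 rose and 15 fell, 58.3% of the members, against 41.1% of all genes (19.5% higher, 21.6% lower). Median log2 fold changes of the members were −0.047 with the Crebl2 siRNA and −0.100 with the Luc siRNA, and those of all genes −0.012 with the Crebl2 siRNA and 0.017 with the Luc siRNA. The rises numbered 2 with the Crebl2 siRNA without Crebl2-rapamycin library 2 or Crebl2-ethanol library 1 or 2, and 3 with the Luc siRNA without Luc-rapamycin library 2 or Luc-ethanol library 2. Calls of at least 2-fold numbered 2 with each siRNA, Gsta1 and Gsta2 in both cases, while 6.50% of all genes with the Crebl2 siRNA and 5.76% with the Luc siRNA changed that far. In 21 members with each siRNA the rapamycin and ethanol libraries did not overlap, against 53.6% of all genes with the Crebl2 siRNA and 50.4% with the Luc siRNA.

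**Figure D3:**
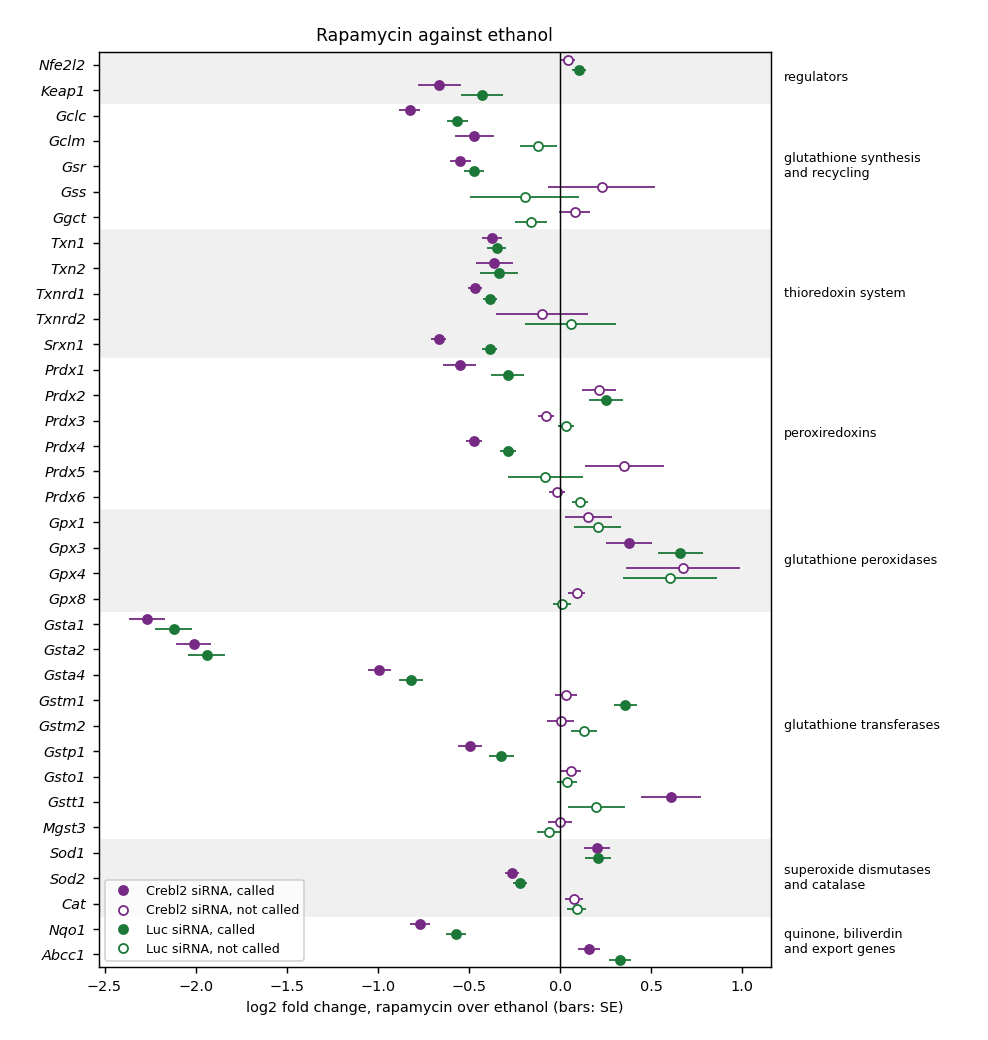
Log2 fold change of rapamycin over ethanol for the 36 tested members by role, with the Crebl2 siRNA (purple) and with the Luc siRNA (green); bars are SE and filled points are called at adjusted p under 0.05. Gsta1 and Gsta2 stand apart at −1.94 to −2.27, and Gpx3, Abcc1 and Sod1 are the members called higher with both siRNAs.

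The interaction is the drug effect in Crebl2 siRNA cells less the drug effect in Luc siRNA cells, and it was called for 1 of 36 members, Srxn1, which was negative. That is 2.78% of the members, while 1.20% of all genes were called, 0.611% higher and 0.589% lower. At an unadjusted p under 0.05 it held for 6 members, against 14.3% of all genes. Its median was −0.078 on the log2 scale for the members and −0.033 for all genes.

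**Figure D4:**
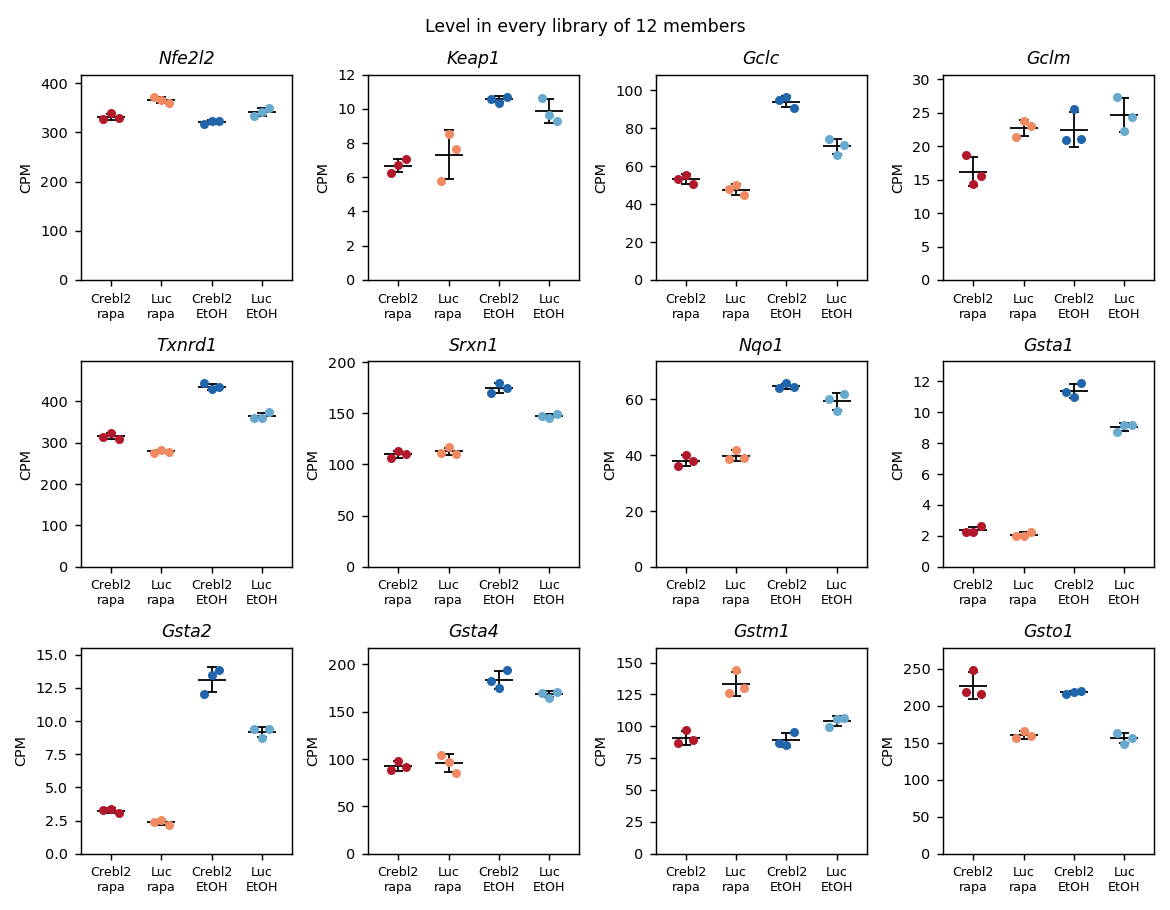
CPM in each library (points) of 12 members, with the mean (horizontal mark) and SD (bars) of 3 libraries, in Crebl2 siRNA and Luc siRNA cells given rapamycin (rapa) and then in those given ethanol (EtOH). Gclc, Txnrd1, Nqo1 and the Gsta genes lie lower in rapamycin, Gsto1 follows the siRNA, and Srxn1 differs between siRNAs in ethanol and overlaps in rapamycin.

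Among the regulators, the message of NRF2 varied little and that of its repressor was lower in rapamycin. In rapamycin, Nfe2l2 stood at 327, 339 and 328 CPM with the Crebl2 siRNA and 373, 367 and 360.2 CPM with the Luc siRNA. With ethanol, Nfe2l2 stood at 317, 324 and 324 CPM with the Crebl2 siRNA and 334, 341 and 349 CPM with the Luc siRNA. No groups overlapped within a comparison, yet all differences of Nfe2l2 (chr2:75675513-75704641) were small. It fell with the Crebl2 siRNA in rapamycin (log2 change −0.15 ± 0.039, edgeR's adjusted p = 0.0084) and missed the threshold in ethanol (log2 change −0.086 ± 0.038, edgeR's adjusted p = 0.092). It rose in rapamycin with the Luc siRNA (log2 change 0.10 ± 0.038, edgeR's adjusted p = 0.043) and not beyond the threshold with the Crebl2 siRNA (log2 change 0.043 ± 0.039, edgeR's adjusted p = 0.39). Its siRNA difference in rapamycin was not called without Crebl2-rapamycin library 1 or 3, or Luc-rapamycin library 1, 2 or 3 (log2 change −0.13 to −0.10, edgeR's adjusted p 0.055 to 0.13), nor without a count filter (log2 change −0.12, edgeR's adjusted p = 0.14). Its rapamycin difference with the Luc siRNA was not called without Luc-rapamycin library 1, 2 or 3, or Luc-ethanol library 1 or 2 (log2 change 0.062 to 0.10, edgeR's adjusted p 0.090 to 0.34), nor with RLE scaling, without a count filter or with the compared groups fitted alone (log2 change 0.062 to 0.10, edgeR's adjusted p 0.055 to 0.55).

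Keap1 (chr9:21229730-21239361), the substrate adaptor that presents NRF2 to a ubiquitin ligase, was seen through a countable share of 31.1%. In rapamycin, Keap1 stood at 6.27, 6.703 and 7.06 CPM with the Crebl2 siRNA and 5.77, 8.54 and 7.66 CPM with the Luc siRNA. With ethanol, Keap1 stood at 10.6, 10.4 and 10.7 CPM with the Crebl2 siRNA and 10.6, 9.65 and 9.29 CPM with the Luc siRNA. All rapamycin libraries lay below all ethanol libraries, and the siRNA groups overlapped. Keap1 fell in rapamycin by 0.66 on the log2 scale with the Crebl2 siRNA (SE 0.12 and edgeR's adjusted p = 0.00024) and by 0.43 with the Luc siRNA (SE 0.12 and edgeR's adjusted p = 0.0078). It passed in neither siRNA comparison.

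Nqo1 (chr8:107388225-107403206) encodes a quinone reductase and is a standard readout of NRF2 activity. In rapamycin, Nqo1 measured 36.1, 40.04 and 38.1 CPM with the Crebl2 siRNA and 38.8, 42.03 and 38.9 CPM with the Luc siRNA. With ethanol, Nqo1 measured 64.00, 65.8 and 64.6 CPM with the Crebl2 siRNA and 60.3, 55.9 and 61.9 CPM with the Luc siRNA. It was 1.702-fold lower in rapamycin with the Crebl2 siRNA (log2 change −0.77 ± 0.055, edgeR's adjusted p = 1.7e-08) and 1.49-fold lower with the Luc siRNA (log2 change −0.57 ± 0.055, edgeR's adjusted p = 5.6e-07), with no overlap between drug groups. The siRNA did not change it beyond the threshold in rapamycin (log2 change −0.068 ± 0.056, edgeR's adjusted p = 0.39) or in ethanol (log2 change 0.13 ± 0.054, edgeR's adjusted p = 0.075), although the ethanol groups did not overlap. Abcc1, a pump that exports glutathione conjugates, went the other way with the drug. Its level was 264 to 316 CPM with the Crebl2 siRNA over both treatments and 204 to 275 CPM with the Luc siRNA. It rose with the Crebl2 siRNA in rapamycin (log2 change 0.18 ± 0.059, edgeR's adjusted p = 0.031) and in ethanol (log2 change 0.35 ± 0.060, edgeR's adjusted p = 0.00026). Rapamycin went with higher Abcc1 with the Crebl2 siRNA (log2 change 0.16 ± 0.059, edgeR's adjusted p = 0.040) and with the Luc siRNA (log2 change 0.33 ± 0.060, edgeR's adjusted p = 0.00034). Its siRNA difference in rapamycin was not called without Crebl2-rapamycin library 2 (log2 change 0.19, edgeR's adjusted p = 0.053). Its drug difference with the Crebl2 siRNA was not called without Crebl2-rapamycin library 2 or 3, or Crebl2-ethanol library 2 or 3 (log2 change 0.12 to 0.18, edgeR's adjusted p 0.054 to 0.16).

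Glutathione is made in 2 steps, by glutamate-cysteine ligase and then glutathione synthetase, and its oxidised form is reduced again by glutathione reductase. Gclc (chr9:77754535-77794485) encodes the catalytic subunit of the ligase, the rate-limiting step. In rapamycin, Gclc stood at 53.2, 55.5 and 50.4 CPM with the Crebl2 siRNA and 47.9, 50.2 and 44.8 CPM with the Luc siRNA. With ethanol, Gclc stood at 94.6, 96.7 and 90.8 CPM with the Crebl2 siRNA and 74.2, 66.1 and 71.03 CPM with the Luc siRNA. Drug groups and siRNA groups did not overlap. Gclc was 1.33-fold higher with the Crebl2 siRNA in ethanol (log2 change 0.42 ± 0.056, edgeR's adjusted p = 3.2e-05). In rapamycin the siRNA difference missed the threshold (log2 change 0.15 ± 0.058, edgeR's adjusted p = 0.052). It was called without Crebl2-rapamycin library 3 or Luc-rapamycin library 2 (log2 fold change 0.23). It was also called with RLE scaling, with DESeq2 or without a count filter (0.18), with the compared groups fitted alone (0.16) and with a minimum count of 50 (0.15). Rapamycin went with 1.77-fold lower Gclc with the Crebl2 siRNA (log2 change −0.83 ± 0.057, edgeR's adjusted p = 1.1e-08) and 1.48-fold lower with the Luc siRNA (log2 change −0.56 ± 0.057, edgeR's adjusted p = 1.1e-06). The interaction was −0.26 on the log2 scale (SE 0.080 and edgeR's adjusted p = 0.14).

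Gclm (chr3:122245557-122270732), the modifier subunit of the same enzyme, had another pattern. In rapamycin, Gclm stood at 18.6, 14.4 and 15.5 CPM with the Crebl2 siRNA and 21.4, 23.8 and 22.98 CPM with the Luc siRNA. With ethanol, Gclm stood at 20.9, 25.5 and 21.05 CPM with the Crebl2 siRNA and 27.4, 22.3 and 24.3 CPM with the Luc siRNA. The 3 Crebl2-rapamycin libraries were the lowest of the 12, and the other groups overlapped. Gclm fell with the Crebl2 siRNA in rapamycin (log2 change −0.49 ± 0.11, edgeR's adjusted p = 0.0022) and not beyond the threshold in ethanol (log2 change −0.14 ± 0.10, edgeR's adjusted p = 0.32). It fell in rapamycin with the Crebl2 siRNA (log2 change −0.47 ± 0.11, edgeR's adjusted p = 0.0017), while the Luc siRNA difference did not pass (log2 change −0.12 ± 0.10, edgeR's adjusted p = 0.39). The difference between these effects was not called by the interaction (log2 change −0.35 ± 0.15, edgeR's adjusted p = 0.29).

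Gsr (chr8:33652523-33698163), glutathione reductase, followed the direction of Gclc. In rapamycin, Gsr held 93.04, 101 and 89.6 CPM with the Crebl2 siRNA and 76.4, 84.8 and 74.8 CPM with the Luc siRNA. With ethanol, Gsr held 140.5, 138 and 136 CPM with the Crebl2 siRNA and 114, 105 and 108 CPM with the Luc siRNA. No groups overlapped in any of the 4 pairwise comparisons. Gsr rose with the Crebl2 siRNA in rapamycin (log2 change 0.26 ± 0.056, edgeR's adjusted p = 0.0019) and in ethanol (log2 change 0.34 ± 0.055, edgeR's adjusted p = 0.00017), and fell in rapamycin with the Crebl2 siRNA (log2 change −0.55 ± 0.056, edgeR's adjusted p = 8.4e-07) and with the Luc siRNA (log2 change −0.47 ± 0.056, edgeR's adjusted p = 5.8e-06).

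Ggct (chr6:54982580-54992950) encodes gamma-glutamylcyclotransferase, an enzyme of glutathione turnover. In rapamycin, Ggct stood at 10.6, 11.8 and 10.9 CPM with the Crebl2 siRNA and 8.21, 6.804 and 8.18 CPM with the Luc siRNA. With ethanol, Ggct stood at 10.4, 10.2 and 10.8 CPM with the Crebl2 siRNA and 8.29, 8.77 and 8.799 CPM with the Luc siRNA. It followed the siRNA: all Crebl2 siRNA libraries lay above all Luc siRNA libraries. Ggct rose with the Crebl2 siRNA in rapamycin (log2 change 0.52 ± 0.087, edgeR's adjusted p = 0.00027) and in ethanol (log2 change 0.29 ± 0.086, edgeR's adjusted p = 0.016), and passed in neither drug comparison. The ethanol difference was not called without Crebl2-ethanol library 3, or Luc-ethanol library 1 (log2 change 0.26, edgeR's adjusted p 0.055 to 0.058), nor without a count filter (log2 change 0.26, edgeR's adjusted p = 0.074). Glutathione synthetase, Gss, had 1.29 to 3.98 CPM over the 12 libraries with a countable share of 12.2%, and passed in no comparison.

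Thioredoxin reduces protein disulfides and peroxiredoxins, and its reductase draws on NADPH. Beside the counts by role here and below stand the shares of all tested genes. For the siRNA, 16.3% were called higher and 16.8% lower in rapamycin, and 21.4% higher and 17.0% lower in ethanol. For the drug, these were 19.7% and 25.6% with the Crebl2 siRNA, and 19.5% and 21.6% with the Luc siRNA. No role was tested against these shares. Of the 5 thioredoxin system genes, 4 rose and 0 fell with the Crebl2 siRNA in ethanol, and 2 rose and 0 fell in rapamycin. In rapamycin against ethanol, 4 fell and 0 rose with each siRNA. Txnrd1 (chr10:82833951-82897712), the cytosolic selenoprotein reductase whose promoter window is printed above, showed both patterns. In rapamycin, Txnrd1 stood at 313, 324 and 309 CPM with the Crebl2 siRNA and 276, 283 and 279 CPM with the Luc siRNA. With ethanol, Txnrd1 stood at 444, 429 and 435 CPM with the Crebl2 siRNA and 361, 359 and 374 CPM with the Luc siRNA. No groups overlapped. Txnrd1 rose with the Crebl2 siRNA in rapamycin (log2 change 0.18 ± 0.039, edgeR's adjusted p = 0.0025) and in ethanol (log2 change 0.26 ± 0.039, edgeR's adjusted p = 8.8e-05). It fell in rapamycin with the Crebl2 siRNA (log2 change −0.47 ± 0.039, edgeR's adjusted p = 9.6e-08) and with the Luc siRNA (log2 change −0.38 ± 0.039, edgeR's adjusted p = 1.1e-06).

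Its substrate Txn1 reached 711 to 825 CPM in Crebl2-rapamycin, 577 to 612 CPM in Luc-rapamycin, 950.2 to 1010.3 CPM in Crebl2-ethanol and 750.3 to 766 CPM in Luc-ethanol libraries. These ranges did not overlap within any comparison. Txn1 rose with the Crebl2 siRNA in rapamycin (log2 change 0.34 ± 0.054, edgeR's adjusted p = 0.00019) and in ethanol (log2 change 0.36 ± 0.054, edgeR's adjusted p = 7.9e-05), and fell in rapamycin with the Crebl2 siRNA (log2 change −0.37 ± 0.054, edgeR's adjusted p = 3.4e-05) and the Luc siRNA (log2 change −0.35 ± 0.054, edgeR's adjusted p = 8.5e-05). Mitochondrial thioredoxin, Txn2, at 16.3 to 30.0 CPM, rose with the Crebl2 siRNA in ethanol (log2 change 0.29 ± 0.10, edgeR's adjusted p = 0.035) and fell in rapamycin with the Crebl2 siRNA (log2 change −0.36 ± 0.10, edgeR's adjusted p = 0.0089) and the Luc siRNA (log2 change −0.34 ± 0.10, edgeR's adjusted p = 0.016). The Txn2 siRNA difference in ethanol was not called without Crebl2-ethanol library 2 or 3, or Luc-ethanol library 1 or 3 (log2 change 0.17 to 0.29, edgeR's adjusted p 0.074 to 0.19), nor with the largest transcript alone or with the compared groups fitted alone (log2 change 0.26 to 0.27, edgeR's adjusted p 0.068 to 0.089). The Txn2 drug difference with the Crebl2 siRNA was not called without Crebl2-rapamycin library 3, or Crebl2-ethanol library 2 (log2 change −0.26 to −0.24, edgeR's adjusted p 0.053 to 0.084). The Txn2 drug difference with the Luc siRNA was not called without Luc-ethanol library 2 (log2 change −0.29, edgeR's adjusted p = 0.067). Its siRNA difference in rapamycin missed the threshold (log2 change 0.26 ± 0.10, edgeR's adjusted p = 0.066) and was called without Crebl2-rapamycin library 3 (log2 fold change 0.37). That difference was also called with RLE scaling, with DESeq2 or without a count filter (0.29), and with the compared groups fitted alone (0.27). Txnrd2, at 0.571 to 1.10 CPM, passed in no comparison.

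Srxn1 (chr2:152105516-152111376) encodes sulfiredoxin, which restores peroxiredoxins whose active cysteine has been overoxidised; its promoter windows are printed above. In rapamycin, Srxn1 stood at 107, 114 and 109.9 CPM with the Crebl2 siRNA and 112, 117 and 110.1 CPM with the Luc siRNA. With ethanol, Srxn1 stood at 170.1, 179 and 174 CPM with the Crebl2 siRNA and 148, 146 and 149 CPM with the Luc siRNA. The Crebl2 siRNA libraries all lay above the Luc siRNA libraries in ethanol, whereas in rapamycin the siRNA groups overlapped. Srxn1 was 1.18-fold higher with the Crebl2 siRNA in ethanol (log2 change 0.24 ± 0.041, edgeR's adjusted p = 0.00026), with no called difference in rapamycin (log2 change −0.037 ± 0.042, edgeR's adjusted p = 0.54). It was 1.59-fold lower in rapamycin with the Crebl2 siRNA (log2 change −0.67 ± 0.042, edgeR's adjusted p = 3.8e-09) and 1.31-fold lower with the Luc siRNA (log2 change −0.39 ± 0.042, edgeR's adjusted p = 2.1e-06). These drug effects differed by −0.28 on the log2 scale (SE 0.059 and edgeR's adjusted p = 0.030). That interaction was not called without Crebl2-rapamycin library 1, 2 or 3, or Luc-rapamycin library 1, 2 or 3, or Crebl2-ethanol library 2 or 3, or Luc-ethanol library 1, 2 or 3 (log2 change −0.29 to −0.20, edgeR's adjusted p 0.052 to 0.25), nor with RLE scaling or without a count filter (log2 change −0.26 to −0.22, edgeR's adjusted p 0.056 to 0.17). Its sign was negative in all those settings.

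Peroxiredoxins reduce hydrogen peroxide in the cytosol (Prdx1, Prdx2, Prdx6), mitochondria (Prdx3, Prdx5) and endoplasmic reticulum (Prdx4). Of these 6, 3 rose and 0 fell with the Crebl2 siRNA in ethanol, and 2 rose and 1 fell in rapamycin. Against ethanol, rapamycin went with 0 rises and 2 falls with the Crebl2 siRNA, and 1 rise and 2 falls with the Luc siRNA. Prdx1 (chr4:116685544-116700822) is a known NRF2 target and a partner of sulfiredoxin. In rapamycin, Prdx1 stood at 201, 207 and 188 CPM with the Crebl2 siRNA and 214, 194 and 196 CPM with the Luc siRNA. With ethanol, Prdx1 stood at 281, 301 and 291 CPM with the Crebl2 siRNA and 254, 283 and 199.6 CPM with the Luc siRNA. Luc-ethanol library 3 was the lowest of the ethanol libraries and overlapped the Luc-rapamycin range. Prdx1 fell in rapamycin with the Crebl2 siRNA (log2 change −0.55 ± 0.091, edgeR's adjusted p = 0.00012) and with the Luc siRNA (log2 change −0.29 ± 0.090, edgeR's adjusted p = 0.018), and rose with the Crebl2 siRNA in ethanol (log2 change 0.25 ± 0.090, edgeR's adjusted p = 0.042). The ethanol siRNA difference was not called without Crebl2-ethanol library 1, 2 or 3, or Luc-ethanol library 1 or 3 (log2 change 0.12 to 0.27, edgeR's adjusted p 0.052 to 0.17), nor with a minimum count of 50 or with the compared groups fitted alone (log2 change 0.22 to 0.23, edgeR's adjusted p 0.055 to 0.12). The drug difference with the Luc siRNA was not called without Luc-ethanol library 1 or 2 (log2 change −0.26 to −0.17, edgeR's adjusted p 0.051 to 0.12).

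Prdx6, which also carries a phospholipase activity, stood at 79.5 to 83.4 CPM in Crebl2-rapamycin, 64.2 to 68.9 CPM in Luc-rapamycin, 81.1 to 84.96 CPM in Crebl2-ethanol and 60.9 to 62.8 CPM in Luc-ethanol libraries. The siRNA groups did not overlap, and Prdx6 rose with the Crebl2 siRNA in rapamycin (log2 change 0.28 ± 0.043, edgeR's adjusted p = 0.00013) and in ethanol (log2 change 0.41 ± 0.043, edgeR's adjusted p = 3.2e-06). Prdx3 rose with the Crebl2 siRNA in rapamycin (log2 change 0.13 ± 0.044, edgeR's adjusted p = 0.038) and in ethanol (log2 change 0.24 ± 0.044, edgeR's adjusted p = 0.00055). Its level was 148 to 188 CPM over all libraries. Its rapamycin difference was not called without Crebl2-rapamycin library 2, or Luc-rapamycin library 3 (log2 change 0.13 to 0.14, edgeR's adjusted p 0.070 to 0.074). Prdx4 had 199 to 297 CPM. It fell in rapamycin with the Crebl2 siRNA (log2 change −0.47 ± 0.045, edgeR's adjusted p = 4.1e-07) and the Luc siRNA (log2 change −0.28 ± 0.045, edgeR's adjusted p = 9.5e-05), and with the Crebl2 siRNA in rapamycin (log2 change −0.21 ± 0.045, edgeR's adjusted p = 0.0021). That siRNA difference was not called without Crebl2-rapamycin library 3 (log2 change −0.15, edgeR's adjusted p = 0.056). Prdx2, at 6.54 to 9.46 CPM and a countable share of 19.04%, rose in rapamycin with the Luc siRNA (log2 change 0.25 ± 0.093, edgeR's adjusted p = 0.040). The Prdx2 difference was not called without Luc-rapamycin library 1, 2 or 3, or Luc-ethanol library 2 or 3 (log2 change 0.17 to 0.27, edgeR's adjusted p 0.071 to 0.25), nor with DESeq2, without a count filter, with the largest transcript alone or with the compared groups fitted alone (log2 change 0.088 to 0.25, adjusted p 0.059 to 0.55). Prdx5, at 0.714 to 1.30 CPM, passed in no comparison.

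Glutathione peroxidases use glutathione to reduce peroxides, and Gpx1, Gpx3 and Gpx4 are selenoproteins. Of the 4 tested, 1 fell with the Crebl2 siRNA in ethanol and 2 fell in rapamycin, and 1 rose in rapamycin with each siRNA. Gpx3 (chr11:54902453-54910377), the secreted form, was higher in rapamycin, where more members were called lower than higher. In rapamycin, Gpx3 stood at 5.39, 5.83 and 5.596 CPM with the Crebl2 siRNA and 6.88, 8.42 and 7.16 CPM with the Luc siRNA. With ethanol, Gpx3 stood at 4.003, 3.81 and 5.08 CPM with the Crebl2 siRNA and 5.19, 4.76 and 4.26 CPM with the Luc siRNA. Rapamycin libraries lay above ethanol libraries with either siRNA. Gpx3 was 1.299-fold higher in rapamycin with the Crebl2 siRNA (log2 change 0.38 ± 0.13, edgeR's adjusted p = 0.023) and 1.58-fold higher with the Luc siRNA (log2 change 0.66 ± 0.12, edgeR's adjusted p = 0.00044). It fell with the Crebl2 siRNA in rapamycin (log2 change −0.42 ± 0.12, edgeR's adjusted p = 0.016), and not beyond the threshold in ethanol (log2 change −0.14 ± 0.13, edgeR's adjusted p = 0.44). The siRNA difference was not called without Crebl2-rapamycin library 1 or 3, or Luc-rapamycin library 2 (log2 change −0.38 to −0.29, edgeR's adjusted p 0.060 to 0.11). The drug difference with the Crebl2 siRNA was not called without Crebl2-rapamycin library 2, or Crebl2-ethanol library 1 or 2 (log2 change 0.30 to 0.37, edgeR's adjusted p 0.051 to 0.094).

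Gpx4 (chr10:80047166-80056439) encodes the phospholipid hydroperoxidase that protects cells from ferroptosis. Only 19 to 95 reads per library were counted for it, at a countable share of 42.5%. In rapamycin, Gpx4 stood at 0.876, 0.667 and 1.28 CPM with the Crebl2 siRNA and 1.28, 2.39 and 1.49 CPM with the Luc siRNA. With ethanol, Gpx4 stood at 0.484, 0.5702 and 0.695 CPM with the Crebl2 siRNA and 1.304, 1.24 and 0.852 CPM with the Luc siRNA. The siRNA groups in ethanol did not overlap, and Crebl2-rapamycin library 3 met Luc-rapamycin library 1. Gpx4 counts fell with the Crebl2 siRNA in rapamycin (log2 change −0.88 ± 0.27, edgeR's adjusted p = 0.021) and in ethanol (log2 change −0.95 ± 0.30, edgeR's adjusted p = 0.020). The rapamycin difference was not called without Crebl2-rapamycin library 1 or 2, or Luc-rapamycin library 2 (log2 change −0.80 to −0.53, edgeR's adjusted p 0.070 to 0.14). The ethanol difference was not called without Crebl2-ethanol library 1, or Luc-ethanol library 1 or 2 (log2 change −0.88 to −0.83, edgeR's adjusted p 0.063 to 0.081). The pseudogene Gpx4-ps2 shares 61.7% of its 50-base stretches. Gpx1, at 5.99 to 9.26 CPM, and Gpx8, at 261 to 300.2 CPM, passed in no comparison.

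Glutathione transferases join glutathione to electrophiles. Of the 9 tested, 4 rose and 2 fell with the Crebl2 siRNA in ethanol and 2 rose and 2 fell in rapamycin. Against ethanol, rapamycin went with 1 rise and 4 falls with each siRNA. The largest drug differences of all members were those of the alpha class, whose genes Gsta4, Gsta1 and Gsta2 lie near each other on chromosome 9. Gsta1 and Gsta2 are close copies: their coding sequences are 97.6% identical, with 13 substitutions and 3 gap bases, while Gsta1 and Gsta4 are 66.6% identical. The stretch from coding base 449 to 508 of each was chosen because no gap-free stretch of 60 bases differs more. In it, 5 of 60 bases, in capitals, tell the genes apart and the rest do not.
Gsta1, chr9, GRCm38, coding strand: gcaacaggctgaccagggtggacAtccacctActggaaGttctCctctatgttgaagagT
Gsta2, chr9, GRCm38, coding strand: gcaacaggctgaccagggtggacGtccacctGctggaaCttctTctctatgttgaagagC
Reads that cover no differing base can be assigned to the wrong copy, and other stretches of the coding sequence hold no more such bases than this one. Gsta1 also shares 82.9% of its 50-base stretches with Gm3776, which is not analysed here.

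Gsta1 (chr9:78230656-78242684) was counted at 73 reads or more in each library. In rapamycin, Gsta1 had 2.23, 2.26 and 2.62 CPM with the Crebl2 siRNA and 2.02, 1.97 and 2.24 CPM with the Luc siRNA. With ethanol, Gsta1 had 11.3, 10.98 and 11.9 CPM with the Crebl2 siRNA and 8.73, 9.203 and 9.16 CPM with the Luc siRNA. Every rapamycin library lay below every ethanol library. Gsta1 was 4.81-fold lower in rapamycin with the Crebl2 siRNA (log2 change −2.27 ± 0.099, edgeR's adjusted p = 8.4e-11) and 4.35-fold lower with the Luc siRNA (log2 change −2.12 ± 0.10, edgeR's adjusted p = 2.8e-10). With the Crebl2 siRNA it rose in ethanol (log2 change 0.33 ± 0.087, edgeR's adjusted p = 0.0064) and not beyond the threshold in rapamycin (log2 change 0.19 ± 0.11, edgeR's adjusted p = 0.28).

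Gsta2 (chr9:78331018-78355788) had the same order of groups. In rapamycin, Gsta2 stood at 3.32, 3.39 and 3.04 CPM with the Crebl2 siRNA and 2.41, 2.55 and 2.18 CPM with the Luc siRNA. With ethanol, Gsta2 stood at 12.03, 13.5 and 13.8 CPM with the Crebl2 siRNA and 9.395, 8.703 and 9.38 CPM with the Luc siRNA. No groups overlapped. Gsta2 was 4.03-fold lower in rapamycin with the Crebl2 siRNA (log2 change −2.01 ± 0.098, edgeR's adjusted p = 2.4e-10) and 3.84-fold lower with the Luc siRNA (log2 change −1.94 ± 0.10, edgeR's adjusted p = 7.6e-10). It rose with the Crebl2 siRNA in rapamycin (log2 change 0.45 ± 0.11, edgeR's adjusted p = 0.0054) and in ethanol (log2 change 0.52 ± 0.088, edgeR's adjusted p = 0.00026).

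Gsta4 (chr9:78182774-78209349), which conjugates the lipid peroxidation product 4-hydroxynonenal, shared no 50-base stretch with another gene. In rapamycin, Gsta4 stood at 88.4, 98.2 and 91.1 CPM with the Crebl2 siRNA and 104, 97.4 and 85.2 CPM with the Luc siRNA. With ethanol, Gsta4 stood at 183, 175 and 194 CPM with the Crebl2 siRNA and 169.8, 165 and 171 CPM with the Luc siRNA. Here too the drug groups were apart, while the siRNA groups overlapped in rapamycin. Gsta4 was 1.99-fold lower in rapamycin with the Crebl2 siRNA (log2 change −0.99 ± 0.065, edgeR's adjusted p = 6.2e-09) and 1.76-fold lower with the Luc siRNA (log2 change −0.82 ± 0.065, edgeR's adjusted p = 7.1e-08). Neither siRNA comparison passed.

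Gstm1, of the mu class (chr3:108012255-108017973), with a countable share of 45.1%, was highest in the Luc-rapamycin libraries. In rapamycin, Gstm1 stood at 87.01, 97.4 and 88.9 CPM with the Crebl2 siRNA and 126, 144 and 130.4 CPM with the Luc siRNA. With ethanol, Gstm1 stood at 86.7, 84.9 and 95.3 CPM with the Crebl2 siRNA and 99.7, 106 and 107 CPM with the Luc siRNA. The Luc-rapamycin group stood clear of the other 3. Gstm1 fell with the Crebl2 siRNA in rapamycin (log2 change −0.55 ± 0.062, edgeR's adjusted p = 6.5e-06) and in ethanol (log2 change −0.22 ± 0.062, edgeR's adjusted p = 0.0092). It rose in rapamycin with the Luc siRNA (log2 change 0.36 ± 0.061, edgeR's adjusted p = 0.00020) and not beyond the threshold with the Crebl2 siRNA (log2 change 0.033 ± 0.062, edgeR's adjusted p = 0.70). The interaction missed the threshold (log2 change −0.33 ± 0.087, edgeR's adjusted p = 0.085) and was called with DESeq2 (−0.30) and without a count filter (−0.27). Gstm2, a neighbour whose coding sequence is 85.9% identical, had 24.0 to 32.3 CPM and fell with the Crebl2 siRNA in rapamycin (log2 change −0.25 ± 0.074, edgeR's adjusted p = 0.017). The Gstm2 difference was not called without Crebl2-rapamycin library 1 or 3, or Luc-rapamycin library 1 or 2 (log2 change −0.22 to −0.16, edgeR's adjusted p 0.069 to 0.16).

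Gsto1 (chr19:47854970-47864790), an omega-class transferase that reduces dehydroascorbate and deglutathionylates proteins, differed by siRNA. In rapamycin, Gsto1 stood at 218, 248 and 216 CPM with the Crebl2 siRNA and 156, 166 and 159 CPM with the Luc siRNA. With ethanol, Gsto1 stood at 216, 219 and 220.0 CPM with the Crebl2 siRNA and 163, 149 and 157 CPM with the Luc siRNA. All Crebl2 siRNA libraries lay above all Luc siRNA libraries. Gsto1 was 1.42-fold higher with the Crebl2 siRNA in rapamycin (log2 change 0.50 ± 0.054, edgeR's adjusted p = 4.4e-06) and 1.398-fold higher in ethanol (log2 change 0.48 ± 0.054, edgeR's adjusted p = 5.8e-06). Drug differences passed with neither the Crebl2 siRNA (log2 change 0.059 ± 0.054, edgeR's adjusted p = 0.40) nor the Luc siRNA (log2 change 0.038 ± 0.054, edgeR's adjusted p = 0.61).

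Gstt1 (chr10:75783813-75798584), a theta-class enzyme, was low. In rapamycin, Gstt1 stood at 2.76, 2.47 and 2.43 CPM with the Crebl2 siRNA and 2.83, 2.82 and 2.18 CPM with the Luc siRNA. With ethanol, Gstt1 stood at 1.45, 1.83 and 1.75 CPM with the Crebl2 siRNA and 2.04, 2.73 and 2.03 CPM with the Luc siRNA. The Crebl2-ethanol libraries were the lowest 3. Gstt1 rose in rapamycin with the Crebl2 siRNA (log2 change 0.61 ± 0.16, edgeR's adjusted p = 0.0062) and fell with the Crebl2 siRNA in ethanol (log2 change −0.44 ± 0.16, edgeR's adjusted p = 0.043). The siRNA difference was not called without Crebl2-ethanol library 1 or 3, or Luc-ethanol library 2 (log2 change −0.47 to −0.28, edgeR's adjusted p 0.071 to 0.22), nor with DESeq2 or with the compared groups fitted alone (log2 change −0.47 to −0.44, adjusted p 0.055 to 0.084). The pi-class Gstp1, at 98.6 to 161 CPM, fell in rapamycin with the Crebl2 siRNA (log2 change −0.49 ± 0.067, edgeR's adjusted p = 1.9e-05) and the Luc siRNA (log2 change −0.32 ± 0.067, edgeR's adjusted p = 0.0012). It rose with the Crebl2 siRNA in ethanol (log2 change 0.25 ± 0.067, edgeR's adjusted p = 0.0087). The microsomal Mgst3, at 135 to 166 CPM, passed in no comparison.

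Superoxide dismutases turn superoxide into hydrogen peroxide, which catalase breaks down. Mitochondrial Sod2 stood at 104 to 108 CPM in Crebl2-rapamycin, 98.9 to 99.5 CPM in Luc-rapamycin, 125 to 128 CPM in Crebl2-ethanol and 111 to 119 CPM in Luc-ethanol libraries. It fell in rapamycin with the Crebl2 siRNA (log2 change −0.26 ± 0.040, edgeR's adjusted p = 5.5e-05) and the Luc siRNA (log2 change −0.22 ± 0.040, edgeR's adjusted p = 0.00037), and rose with the Crebl2 siRNA in ethanol (log2 change 0.13 ± 0.040, edgeR's adjusted p = 0.018). The Sod2 siRNA difference was not called without Crebl2-ethanol library 3, or Luc-ethanol library 2 (log2 change 0.10 to 0.12, edgeR's adjusted p 0.052 to 0.083), nor without a count filter or with the compared groups fitted alone (log2 change 0.099 to 0.10, edgeR's adjusted p 0.14 to 0.24). Cytosolic Sod1, at 404 to 577 CPM, rose in rapamycin with the Crebl2 siRNA (log2 change 0.20 ± 0.073, edgeR's adjusted p = 0.033) and the Luc siRNA (log2 change 0.21 ± 0.073, edgeR's adjusted p = 0.032). The Sod1 difference with the Crebl2 siRNA was not called without Crebl2-rapamycin library 2, or Crebl2-ethanol library 1 or 2 (log2 change 0.14 to 0.22, edgeR's adjusted p 0.050 to 0.15). The Sod1 difference with the Luc siRNA was not called without Luc-rapamycin library 1 or 2, or Luc-ethanol library 2 or 3 (log2 change 0.12 to 0.19, edgeR's adjusted p 0.097 to 0.24). Catalase, Cat, at 118 to 135 CPM, passed in no comparison.

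Other genes of the pathway were read from lists of NRF2 partners, other NRF2 targets, other glutathione genes, selenoprotein genes and thioredoxin partners. Of all tested genes, 33.1% were called for the siRNA in rapamycin (16.3% higher, 16.8% lower) and 38.4% in ethanol (21.4% higher, 17.0% lower). For the drug, 45.3% were called with the Crebl2 siRNA (19.7% higher, 25.6% lower) and 41.1% with the Luc siRNA (19.5% higher, 21.6% lower). No list was tested against these shares. Of 12 NRF2 partners, repressors and relatives, 9 were tested. With the Crebl2 siRNA 2 rose and 1 fell in rapamycin, and 3 rose and 0 fell in ethanol; in rapamycin 4 rose and 2 fell with the Crebl2 siRNA, and 2 rose and 1 fell with the Luc siRNA. Bach1, a repressor that competes for NRF2 sites, rose with the Crebl2 siRNA in rapamycin (log2 change 0.27 ± 0.039, edgeR's adjusted p = 8.9e-05) and in ethanol (log2 change 0.16 ± 0.039, edgeR's adjusted p = 0.0038), as did the small MAF gene Mafg in rapamycin (log2 change 0.15 ± 0.047, edgeR's adjusted p = 0.025) and in ethanol (log2 change 0.17 ± 0.047, edgeR's adjusted p = 0.0085). Maff, another small MAF gene, seen through 19.7% of its bases, rose in rapamycin with the Crebl2 siRNA (log2 change 0.97 ± 0.15, edgeR's adjusted p = 8.1e-05) and the Luc siRNA (log2 change 0.93 ± 0.15, edgeR's adjusted p = 0.00013). Rbx1, the RING subunit of the ligase that KEAP1 serves, fell in rapamycin with the Crebl2 siRNA (log2 change −0.44 ± 0.042, edgeR's adjusted p = 3.9e-07) and the Luc siRNA (log2 change −0.32 ± 0.042, edgeR's adjusted p = 1.4e-05), and rose with the Crebl2 siRNA in ethanol (log2 change 0.13 ± 0.042, edgeR's adjusted p = 0.020).

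Of 24 other NRF2 targets, 19 were tested. Against the Luc siRNA, the Crebl2 siRNA went with 3 rises and 8 falls in rapamycin, and with 6 rises and 5 falls in ethanol. In rapamycin 4 rose and 7 fell with the Crebl2 siRNA, and 4 rose and 5 fell with the Luc siRNA. For the siRNA, the median log2 fold change of the list was −0.144 in rapamycin (−0.013 for all genes) and 0.038 in ethanol (0.012 for all genes). For the drug, it was −0.076 with the Crebl2 siRNA (−0.012 for all genes) and 0.049 with the Luc siRNA (0.017 for all genes). Hmox1, heme oxygenase, fell in rapamycin with the Crebl2 siRNA (log2 change −0.44 ± 0.045, edgeR's adjusted p = 1.1e-06) and the Luc siRNA (log2 change −0.38 ± 0.046, edgeR's adjusted p = 6.5e-06), and rose with the Crebl2 siRNA in ethanol (log2 change 0.15 ± 0.045, edgeR's adjusted p = 0.016). G6pdx, which supplies NADPH through the pentose phosphate path, differed with the Crebl2 siRNA in opposite directions, lower in rapamycin (log2 change −0.15 ± 0.047, edgeR's adjusted p = 0.021) and higher in ethanol (log2 change 0.30 ± 0.047, edgeR's adjusted p = 0.00012). It fell in rapamycin against ethanol with the Crebl2 siRNA (log2 change −0.52 ± 0.047, edgeR's adjusted p = 2.8e-07) and not beyond the threshold with the Luc siRNA (log2 change −0.060 ± 0.047, edgeR's adjusted p = 0.34). It was the 1 gene of the list called in the interaction (log2 change −0.46 ± 0.067, edgeR's adjusted p = 0.0029). Aldehyde oxidase Aox1 fell with the Crebl2 siRNA in rapamycin (log2 change −0.61 ± 0.055, edgeR's adjusted p = 8.0e-07) and in ethanol (log2 change −0.50 ± 0.056, edgeR's adjusted p = 5.7e-06), and rose in rapamycin with the Crebl2 siRNA (log2 change 0.32 ± 0.056, edgeR's adjusted p = 0.00020) and the Luc siRNA (log2 change 0.43 ± 0.055, edgeR's adjusted p = 1.2e-05). Prostaglandin reductase Ptgr1 rose with the Crebl2 siRNA in rapamycin (log2 change 0.32 ± 0.042, edgeR's adjusted p = 3.0e-05) and in ethanol (log2 change 0.24 ± 0.042, edgeR's adjusted p = 0.00034), and fell in rapamycin with the Crebl2 siRNA (log2 change −0.13 ± 0.042, edgeR's adjusted p = 0.019) and the Luc siRNA (log2 change −0.21 ± 0.042, edgeR's adjusted p = 0.00075). Biliverdin reductase A, Blvra, fell in rapamycin with the Crebl2 siRNA (log2 change −0.46 ± 0.050, edgeR's adjusted p = 1.8e-06) and the Luc siRNA (log2 change −0.54 ± 0.050, edgeR's adjusted p = 4.6e-07), and rose with the Crebl2 siRNA in rapamycin (log2 change 0.24 ± 0.051, edgeR's adjusted p = 0.0023) and in ethanol (log2 change 0.15 ± 0.049, edgeR's adjusted p = 0.021).

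Of 31 other glutathione genes, 18 were tested. For the siRNA comparison, 2 rose and 3 fell in rapamycin, and 4 rose and 2 fell in ethanol; in rapamycin 3 rose and 5 fell with the Crebl2 siRNA, and 2 rose and 4 fell with the Luc siRNA. Chac1, which degrades glutathione and is a known ATF4 target, rose with the Crebl2 siRNA in ethanol (log2 change 0.63 ± 0.073, edgeR's adjusted p = 7.7e-06). It fell in rapamycin with the Crebl2 siRNA (log2 change −1.15 ± 0.075, edgeR's adjusted p = 6.0e-09) and the Luc siRNA (log2 change −0.48 ± 0.076, edgeR's adjusted p = 9.2e-05), with a called interaction (log2 change −0.67 ± 0.11, edgeR's adjusted p = 0.0053). Cth, which makes cysteine from cystathionine, fell in rapamycin with the Crebl2 siRNA (log2 change −1.78 ± 0.14, edgeR's adjusted p = 6.6e-08) and the Luc siRNA (log2 change −1.35 ± 0.14, edgeR's adjusted p = 1.5e-06). The gamma-glutamyltransferase relative Ggt7 fell with the Crebl2 siRNA in rapamycin (log2 change −0.57 ± 0.065, edgeR's adjusted p = 7.7e-06) and in ethanol (log2 change −0.55 ± 0.066, edgeR's adjusted p = 1.0e-05), and rose in rapamycin with the Crebl2 siRNA (log2 change 0.29 ± 0.067, edgeR's adjusted p = 0.0023) and the Luc siRNA (log2 change 0.31 ± 0.064, edgeR's adjusted p = 0.0012). Glo1, the glyoxalase that works on a glutathione adduct, rose with the Crebl2 siRNA in rapamycin (log2 change 0.28 ± 0.043, edgeR's adjusted p = 0.00012) and in ethanol (log2 change 0.28 ± 0.043, edgeR's adjusted p = 0.00011), and fell in rapamycin with the Crebl2 siRNA (log2 change −0.16 ± 0.043, edgeR's adjusted p = 0.0062) and the Luc siRNA (log2 change −0.16 ± 0.043, edgeR's adjusted p = 0.0060).

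Of 22 selenoprotein synthesis factors and other selenoproteins, 20 were tested. Under the Crebl2 siRNA 5 rose and 4 fell in rapamycin, and 6 rose and 3 fell in ethanol; in rapamycin 5 rose and 7 fell with the Crebl2 siRNA, and 2 rose and 6 fell with the Luc siRNA. Sephs2, the enzyme that makes the selenium donor, rose with the Crebl2 siRNA in ethanol (log2 change 0.29 ± 0.057, edgeR's adjusted p = 0.00086), and fell in rapamycin with the Crebl2 siRNA (log2 change −0.70 ± 0.058, edgeR's adjusted p = 8.7e-08) and the Luc siRNA (log2 change −0.48 ± 0.058, edgeR's adjusted p = 7.6e-06). Selenoi, an ethanolamine phosphotransferase, fell in rapamycin with the Crebl2 siRNA (log2 change −0.58 ± 0.050, edgeR's adjusted p = 1.6e-07) and the Luc siRNA (log2 change −0.40 ± 0.050, edgeR's adjusted p = 9.8e-06). Selenoi also rose with the Crebl2 siRNA in ethanol (log2 change 0.22 ± 0.050, edgeR's adjusted p = 0.0023). Selenom fell with the Crebl2 siRNA in rapamycin (log2 change −0.27 ± 0.066, edgeR's adjusted p = 0.0056) and in ethanol (log2 change −0.39 ± 0.066, edgeR's adjusted p = 0.00025), and rose in rapamycin with the Crebl2 siRNA (log2 change 0.21 ± 0.066, edgeR's adjusted p = 0.016). Sephs1 fell with the Crebl2 siRNA in rapamycin (log2 change −0.26 ± 0.061, edgeR's adjusted p = 0.0044), and in rapamycin against ethanol it fell with the Crebl2 siRNA (log2 change −0.47 ± 0.061, edgeR's adjusted p = 1.3e-05) and the Luc siRNA (log2 change −0.23 ± 0.060, edgeR's adjusted p = 0.0067). Dio2, which activates thyroid hormone, differed with the Crebl2 siRNA in opposite directions, higher in rapamycin (log2 change 0.35 ± 0.085, edgeR's adjusted p = 0.0050) and lower in ethanol (log2 change −0.25 ± 0.085, edgeR's adjusted p = 0.027). It rose in rapamycin against ethanol with the Crebl2 siRNA (log2 change 0.41 ± 0.085, edgeR's adjusted p = 0.00092) and did not pass with the Luc siRNA (log2 change −0.19 ± 0.085, edgeR's adjusted p = 0.084), with a called interaction (log2 change 0.60 ± 0.12, edgeR's adjusted p = 0.023).

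Of 17 thioredoxin and sulfhydryl partners, 16 were tested. In Crebl2 siRNA cells 2 rose and 4 fell in rapamycin, and 4 rose and 4 fell in ethanol; in rapamycin 3 rose and 7 fell with the Crebl2 siRNA, and 2 rose and 7 fell with the Luc siRNA. Sesn2 and Sesn3 encode sestrins, stress proteins that restrain mTORC1. Sesn2 rose with the Crebl2 siRNA in rapamycin (log2 change 0.72 ± 0.061, edgeR's adjusted p = 3.8e-07) and in ethanol (log2 change 0.80 ± 0.060, edgeR's adjusted p = 9.0e-08), and Sesn3 fell with it in rapamycin (log2 change −0.83 ± 0.074, edgeR's adjusted p = 6.2e-07) and in ethanol (log2 change −0.56 ± 0.073, edgeR's adjusted p = 2.1e-05). Both fell in rapamycin against ethanol: Sesn2 with the Crebl2 siRNA (log2 change −0.43 ± 0.059, edgeR's adjusted p = 2.3e-05) and the Luc siRNA (log2 change −0.35 ± 0.061, edgeR's adjusted p = 0.00027), and Sesn3 with the Crebl2 siRNA (log2 change −0.53 ± 0.074, edgeR's adjusted p = 2.6e-05) and the Luc siRNA (log2 change −0.26 ± 0.072, edgeR's adjusted p = 0.0085). Msrb3, a methionine sulfoxide reductase, rose in rapamycin with the Crebl2 siRNA (log2 change 0.44 ± 0.044, edgeR's adjusted p = 6.8e-07) and the Luc siRNA (log2 change 0.43 ± 0.044, edgeR's adjusted p = 1.2e-06), and Ccs, the copper chaperone of Sod1, rose in rapamycin against ethanol with the Crebl2 siRNA (log2 change 0.55 ± 0.068, edgeR's adjusted p = 6.2e-06) and the Luc siRNA (log2 change 0.31 ± 0.067, edgeR's adjusted p = 0.0016).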

How the data were processed

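Total RNA of 12 C2C12 libraries was sequenced from a stranded kit, per the labels. What the authors deposited are raw counts, 1 whole number for each of 58611 Ensembl transcripts and library. The submitters' processing notes list TopHat, HTSeq and Trim Galore without versions, and the builds mm9 and GRCm38; the rule for reads shared between transcripts, the strand setting and the annotation release are not given in the sources used here.

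Of the transcripts, 99.41% (58264) matched GENCODE M21 on GRCm38; the other 347, with 0.038% of reads, were left out. Counts were summed to 38481 genes; the fixed design had assumed counts per gene. The edgeR function filterByExpr (minimum count 10) kept 13247 genes. The model in edgeR 4.0.16 (R 4.3.3), with TMM scaling and a quasi-likelihood test, had 4 group means over all 12 libraries and gave 5 contrasts; common biological variation was 6.85%. Each SE was obtained from the fold change and its F statistic. The fit was tested on simulated data. Alternatives were RLE scaling, DESeq2 1.42.0, other count filters, the largest transcript alone, only the compared groups, a replicate block and leaving out each library. With 3 libraries against 3, a 2-sided exact permutation test cannot go below p = 0.1. Sequences came from RefSeq (GRCm38.p6) and GENCODE; Biopython 1.88 aligned coding sequences, and shared stretches are runs of 50 bases found in transcripts of another gene.

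All 41 members are named. Values in every library are given for Nfe2l2, Keap1, Nqo1, Gclc, Gclm, Txnrd1 and Srxn1 and for members called in a pairwise contrast with an absolute log2 fold change of at least 0.5 or in the interaction; of each further list, the 2 called genes with the smallest p per contrast are named. Members and lists were chosen with earlier results of these data known.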

Additional observations from a re-analysis of the deposited data

Results flagged for a closer look

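The rapamycin effect on Srxn1 differed between the siRNAs by the interaction term of edgeR, at −0.28 on the log2 scale (SE 0.06, edgeR's adjusted p = 0.03). Srxn1 was 1.59-fold lower in rapamycin with the Crebl2 siRNA and 1.31-fold lower with the Luc siRNA. Over the alternatives tried the edgeR interaction lay between −0.20 and −0.30 and lost its call in many of them, including without any of 11 of the 12 libraries.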

How the results depend on the processing

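In the 4 pairwise comparisons the total number of called members stayed within 1.5 times under every alternative run, but counts in 1 direction moved further. Falls for the siRNA in rapamycin, 7 as reported, were 3 to 6 with a library left out, and falls for the siRNA in ethanol, 3 as reported, were 1 to 3. Rises for the drug, 4 with the Crebl2 siRNA and 6 with the Luc siRNA as reported, were 2 to 5 and 3 to 5 with a library left out, and 2 and 3 with the replicate block. Leaving out each library in turn gave 12 to 15 called members for the siRNA in rapamycin, 14 to 18 for the siRNA in ethanol, 17 to 21 for the drug with the Crebl2 siRNA and 16 to 19 for the drug with the Luc siRNA. The interaction, called for 1 member, was called for 0 with RLE scaling, 2 with DESeq2, 0 with the replicate block, and 0 to 1 when a library was left out. Over all genes the interaction was called for 159 genes (50.9% higher), 138 with RLE scaling (64.5% higher), 388 with DESeq2, 415 without a count filter (74.7% higher) and 91 with the replicate block; the cause was not tested. Replicate numbers did not pair the libraries: same-numbered pairs correlated at −0.292 to 0.124 in their deviations from group means, over 0.1 in 2 of 18 pairs. With the replicate number as a block, 16, 18, 18, 18 and 0 members were called for the siRNA in rapamycin, the siRNA in ethanol, the drug with the Crebl2 siRNA, the drug with the Luc siRNA and the interaction. The block ended the drug calls of Sod1 with each siRNA, of Abcc1 with the Crebl2 siRNA, and of Nfe2l2 and Prdx2 with the Luc siRNA. It also ended the siRNA calls of Abcc1 in rapamycin and Gstt1 in ethanol, and the Srxn1 interaction. In these, edgeR's adjusted p was 0.053 to 0.076. The paragraphs on these genes leave the block out. Among 77 called differences of single members and 1006 alternative values of them, 901 kept direction and call, 105 kept direction and lost the call, over 23 differences, and 0 reversed. Genes with few reads (Gpx4, Txnrd2, Prdx5, Gss, Gstt1) limit what can be detected, and for members with a low countable share the counts cover part of their RNA.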

Other observations

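Gclc, Gsta4, Gsta1 and Gsta2 lie within one stretch of chromosome 9, from 77754535 to 78355788 on GRCm38, and all 4 fell in rapamycin with both siRNAs. This neighbourhood was looked at after their values were seen. Of all tested genes, 25.6% were called lower in rapamycin with the Crebl2 siRNA and 21.6% with the Luc siRNA. Reads of Gsta1 and Gsta2, whose coding sequences are 97.6% identical, can be assigned to the wrong copy. The other genes tested in this stretch were Elovl5, a fatty acid elongase, Fbxo9 and the kinase gene Ick. With the Crebl2 siRNA, the drug differences on the log2 scale were −0.32 for Elovl5 (SE 0.044 and edgeR's adjusted p = 2.2e-05), −1.04 for Fbxo9 (SE 0.32 and edgeR's adjusted p = 0.015) and 0.33 for Ick (SE 0.079 and edgeR's adjusted p = 0.0027). With the Luc siRNA they were −0.15 for Elovl5 (SE 0.044 and edgeR's adjusted p = 0.012), −0.46 for Fbxo9 (edgeR's adjusted p = 0.24) and 0.15 for Ick (edgeR's adjusted p = 0.13). Fbxo9 was seen through 18.4% of its bases, at a mean of 0.495 CPM.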
